A study of Mus musculus with 6 samples.

Results

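The genes described here encode the proteins of the cytosolic and the mitochondrial ribosome in mouse tumours. They were chosen by symbol alone: Rpl and Rps names with a number, Rpsa, Rplp0, Rplp1 and Rplp2 for the cytosolic ribosome, Mrpl and Mrps names with a number for the mitochondrial ribosome, without symbols marked -ps, and with a summed count of at least 15 over the 6 libraries. The rule found 160 of the 28368 genes in the table: 50 of the cytosolic large subunit, 32 of the cytosolic small subunit, 49 of the mitochondrial large subunit and 29 of the mitochondrial small subunit. The treated group holds 3 tumour libraries from mice given MS-DF-MS therapy for 12 h, and the control group holds 3 tumour libraries from mice left untreated. The series concerns implanted depots that deliver drugs acting on STING, a protein that relays the sensing of DNA in the cytosol, and then on apoptosis, and its stated question is how the route from STING to interferon-beta is switched on within the tumour. The labels give no tumour type, strain, age or drug name, and no group received an empty depot, so the drugs and the implant cannot be told apart. They do not state that each library came from a different mouse, so the spread behind the p-values is that between these samples and may be technical only.

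The cytosolic ribosome is built in the nucleolus from ribosomal RNA and a large set of small, mostly basic proteins, made in matched amounts from some of the most abundant messenger RNAs of a growing cell. Many of these messenger RNAs begin with a run of pyrimidines, the TOP motif, through which the kinase mTOR and the protein Larp1 control their translation. The mitochondrial ribosome is a separate particle of bacterial descent that translates the few proteins encoded by mitochondrial DNA, all subunits of the respiratory chain or of ATP synthase. Its own proteins are encoded in the nucleus, made in the cytosol and imported.

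Libraries held between 57017043 and 66634551 counts. Levels are in CPM, a gene's counts over the library total, scaled by edgeR's TMM factors, which ran from 0.974 to 1.014. Pigment cell markers (Tyrp1, Pmel, Dct, Tyr, Mlana and Mitf) summed to between 20580 and 22940 CPM in all 6 libraries, while T cell markers summed to at most 15.74 CPM. Treated library 1 stood apart in several marker lists: its 4 red cell genes summed to 1180 CPM against 215.1 and 395.5 in the other treated libraries and 79.25 to 201.4 in the controls, and its 4 epithelial genes to 70.5 CPM against at most 0.803 elsewhere. Skeletal muscle genes summed to 139.8, 24.6 and 2.61 CPM in treated libraries 1, 2 and 3 and to 67.2, 55.3 and 28.3 CPM in the controls, and myeloid genes to 133.9, 90.4 and 43.3 CPM against 130.1, 126.1 and 94.6 CPM. Endothelial genes were higher in every treated library (95.1 to 108.4 CPM against 49.2 to 53.8), and 3 of the 4 passed the test. Neutrophil genes summed to 46.3, 13.7 and 3.85 CPM in treated libraries 1, 2 and 3 and to 1.99, 1.58 and 3.44 CPM in the controls, also without overlap, and 0 of the 4 passed. None of the tested genes on the other marker lists did. In bulk tissue, fewer cells of a type and less RNA per cell cannot be told apart.

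The cytosolic members were among the most abundant transcripts in these tumours. Levels between genes are compared here per length, in the authors' FPKM. The median FPKM over 6 libraries was 227.6 for the cytosolic members, with a middle range of 121.7 to 375.9, and 18.8 for the mitochondrial members, with a middle range of 9.09 to 27.1. Of the 82 cytosolic members 66 were above 100 FPKM, and 0 of the mitochondrial members were. By subunit the medians were 228.1 FPKM for the cytosolic large and 223.7 for the small subunit, and 20.3 and 16.9 for the mitochondrial large and small subunit.

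Rplp1, an acidic protein of the stalk that recruits translation factors, had the highest level of all members at 1618 FPKM, and Rps15 led the small subunit at 825.3 FPKM. The lowest was Rpl3l, the heart and skeletal muscle paralog of Rpl3, at 0.0537 FPKM. Mrpl12, the mitochondrial counterpart of the bacterial stalk protein, led its ribosome at 98.2 FPKM, followed within the small subunit by Mrps23 at 48.4 FPKM. Mrpl1 at 4.18 and Mrps10 at 4.78 FPKM were the lowest of their subunits. These levels rest on the gene lengths the authors used, which the table does not list. Dividing counts by FPKM gives about 0.564 kb for Rplp1 and 9.15 kb for Mrps10, so per-length levels of genes with long listed models are lower than their counts alone would place them.

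**Figure D1:**
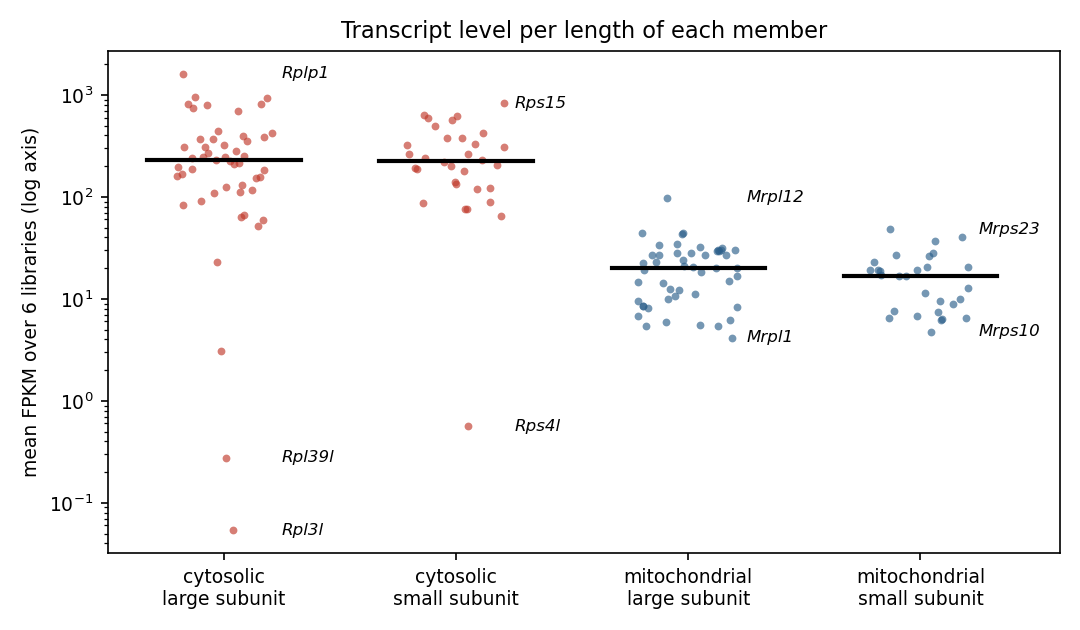
Mean FPKM over the 6 libraries for each of the 160 members (points), on a log axis, by subunit, with the median of each subunit as a bar. Cytosolic members spread around medians of 228.1 and 223.7 FPKM and mitochondrial members around 20.3 and 16.9 FPKM, with a few cytosolic paralogs far below both.

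Across the treatment contrast no ribosomal protein gene passed the test. Of the 159 members with enough counts to test (Rpl3l was left out by the filter on low counts), edgeR's quasi-likelihood test called 0 of 81 cytosolic and 0 of 78 mitochondrial members at an adjusted p of 0.05, beside 1.61% of all 18049 genes tested. At an unadjusted p of 0.05 it gave 12 cytosolic members higher and 0 lower, and 0 mitochondrial members higher and 3 lower, beside 9.12% of all genes higher and 6.90% lower. limma-voom called 0 members, and DESeq2 called 1 cytosolic member higher (Rps12, adjusted p = 0.0396) and 1 mitochondrial member lower (Mrps10, adjusted p = 0.00903), beside 4.95% of all genes higher and 2.41% lower by DESeq2.

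The cytosolic members lay slightly above the controls as a group. Their median log2 fold change, treated over control, was 0.077, or 5.51%, against -0.0032 over all genes tested. Of the 81, 68 had a positive log2 fold change (84.0%, beside 49.4% of all genes) and 13 a negative one. In 33 of them (40.7%) all 3 treated libraries were above all 3 controls, which held for 12.0% of all genes. In 3 of them, Rpl7, Rpl22 and Rpl39, all treated libraries were below all controls (3.70%, beside 11.2% of all genes). The large and small subunits had like medians, 0.069 and 0.079, and so did the 33 members with a bacterial counterpart (0.069) and the 48 others (0.079).

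The mitochondrial members leaned the other way, by less. Their median log2 fold change was -0.038, or -2.63%, with 27 of 78 positive (34.6%). All treated libraries were above all controls in 2 of them (2.56%, beside 12.0% of all genes), Mrpl9 and Mrpl30. All were below in 7 (8.97%, beside 11.2% of all genes): Mrpl40, Mrpl48, Mrpl50, Mrpl58, Mrps10, Mrps11 and Mrps28. The large subunit had a median of -0.028 with 20 of 49 positive, and the small subunit -0.066 with 7 of 29 positive. Members listed as having a bacterial counterpart (44, median -0.030) and the others (34, median -0.056) lay on the same side. Mrps18c was listed among the 44, and its paralogs Mrps18a and Mrps18b among the 34.

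**Figure D2:**
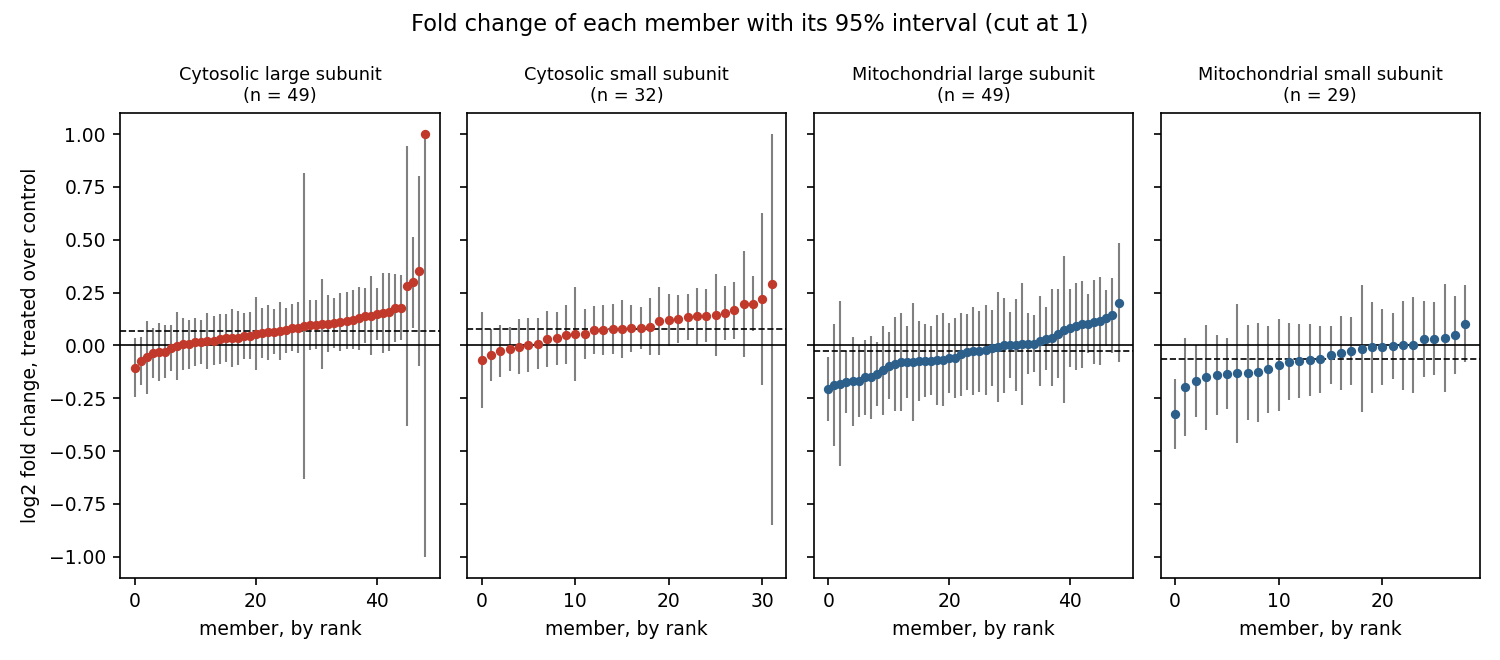
Log2 fold change (treated over control, edgeR) of each of the 159 tested members, sorted within each subunit, with its 95% interval and the subunit's median as a dashed line; points and intervals beyond 1 are cut at the edge (Rpl39l and the interval of Rps4l). Of the cytosolic members 68 of 81 lie above 0, of the mitochondrial members 27 of 78, and no member passed an adjusted p of 0.05.

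The precision was high for genes at these levels. The median standard error of a log2 fold change was 0.056 for cytosolic and 0.083 for mitochondrial members, against 0.16 over all genes. The 95% interval lay within 0.5 of 0 on the log2 scale for 74 of 81 cytosolic and 77 of 78 mitochondrial members. The exceptions were Rpl7a, Rpl17, Rpl21, Rpl32l, Rpl39l, Rps4l, Rps27 and Mrpl53. The coefficient of variation between libraries of a group had a median of 2.89% in treated and 3.52% in control libraries for cytosolic members, below the 6.15% and 4.29% of 1406 other genes at like CPM. For mitochondrial members it was 7.63% and 4.85%, near the 7.48% and 5.95% of 3998 other genes at their CPM.

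Summed over members, cytosolic ribosomal protein transcripts made up 4.85%, 4.64% and 4.695% of the counts in treated libraries 1, 2 and 3 and 4.55%, 4.62% and 4.48% in control libraries 1, 2 and 3. The groups did not overlap, but treated library 2 and control library 2 were close. On the TMM scale the sums were 47848, 47612 and 47096 CPM against 45114, 45995 and 44760 CPM, a mean of 47519 ± 385 against 45290 ± 636 (SD, n = 3 each) and a ratio of 1.05. All treated sums were above all control sums.

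The mitochondrial sums were 4158, 3862 and 3755 CPM in the treated and 3956, 4004 and 4103 CPM in the control libraries, with means of 3925 ± 209 and 4021 ± 75.1 (SD, n = 3 each). Here the groups overlapped, because treated library 1 had the highest sum of all 6 while the other treated libraries had the lowest sums. The ratio of the cytosolic to the mitochondrial sum was 11.5, 12.3 and 12.5 in the treated and 11.4, 11.5 and 10.9 in the control libraries, with treated library 1 barely above the highest control.

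Gene by gene, the spread did not rest on treated library 1 alone. Treated library 1 was the highest of the 6 libraries in 31 of 78 mitochondrial members and control library 3 in 27, while treated library 3 was the lowest in 36. In treated library 1 the median member lay 0.030 above the control mean on the log2 scale for the mitochondrial ribosome, against -0.071 and -0.12 in treated libraries 2 and 3. Without treated library 1 the mitochondrial median log2 fold change was -0.092, with 14 of 78 members positive. Without treated library 3 it was -0.0087, and without control library 3 it was -0.015. The skeletal muscle, myeloid, neutrophil and red cell marker sums given above were, within the treated group, highest in library 1 and lowest in library 3, as the mitochondrial sums were. This order was not particular to them. Fibroblast marker sums followed it (548.9, 531.9 and 482.5 CPM), as did the T cell, endothelial, epithelial and testis germ line sums, while the B cell sum was highest in library 3. In the controls the muscle, myeloid, fibroblast and germ line sums were highest in library 1 and lowest in library 3, the reverse of the mitochondrial sums. Red cell sums rose with the mitochondrial sums there (79.25, 135.1 and 201.4 CPM in control libraries 1, 2 and 3). The neutrophil and endothelial sums were also highest in control library 3, but lowest in control library 2. T cell and B cell sums were highest in control library 2. Pigment cell sums ran in reverse to the mitochondrial sums in both groups. They were 21110, 22440 and 22940 CPM in the treated and 22600, 21700 and 20580 CPM in the control libraries. The part of these marker lists in the result was not tested. The cytosolic median was between 0.064 and 0.088 whichever library was left out.

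**Figure D3:**
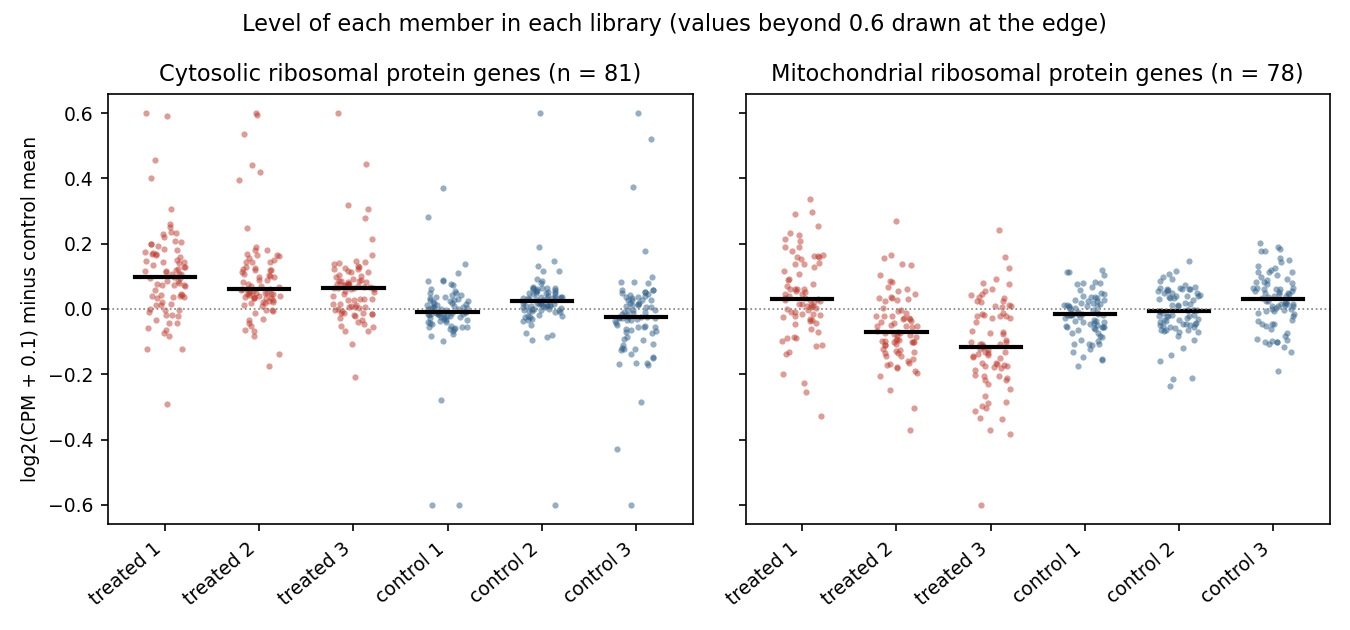
Level of each tested member in each library as log2(CPM + 0.1) minus the mean of the controls, cytosolic members left and mitochondrial members right, with the median of each library as a bar; values beyond 0.6 are drawn at the edge. Cytosolic medians are 0.097, 0.061 and 0.064 in the treated libraries and lie between -0.023 and 0.024 in the controls, whereas the mitochondrial median is 0.030 in treated library 1 and -0.071 and -0.12 in treated libraries 2 and 3.

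Among cytosolic large subunit proteins, the 4 with the smallest p were Rpl21, Rplp2, Rpl41 and Rpl37. Rplp2, the partner of Rplp1 in the stalk, stood at 410.3, 394.5 and 382.4 CPM in the treated and 357.1, 355.4 and 359.0 CPM in the control libraries. All treated values were above the nearly equal controls. Its log2 fold change was 0.15 ± 0.05 (SE, edgeR adjusted p = 0.230), so it did not pass the test. Rpl41, a very short and almost wholly basic peptide of the large subunit, stood at 636.7, 609.8 and 601.1 CPM against 566.8, 568.5 and 497.9 CPM, without overlap (log2 fold change 0.18 ± 0.07, edgeR adjusted p = 0.249). Rpl37, a zinc-binding protein of the large subunit, stood at 280.6, 259.98 and 259.02 CPM against 243.9, 245.7 and 218.1 CPM, again without overlap (0.18 ± 0.07, edgeR adjusted p = 0.270). Rplp1, the member with the highest FPKM, had 0.12 ± 0.06 (log2 fold change, edgeR adjusted p = 0.375).

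Among cytosolic small subunit proteins, the 4 with the smallest p were Rps12, Rps2, Rps9 and Rps19. Rps12 (ENSMUSG00000061983, chromosome 10 from 23785183 to 23787275) stood at 481.3, 484.7 and 525.4 CPM in the treated and 435.9, 427.7 and 437.0 CPM in the control libraries. Every treated value was above every control, with treated library 3 the highest. Its log2 fold change was 0.20 ± 0.06 with an edgeR adjusted p of 0.147. Rps2, a protein at the entry of the messenger RNA channel, stood at 1420, 1355 and 1395 CPM against 1246, 1294 and 1259 CPM (0.13 ± 0.05, edgeR adjusted p = 0.219). Rps9 stood at 821.4, 808.2 and 772.6 CPM against 723.9, 744.7 and 670.7 CPM (0.17 ± 0.06, edgeR adjusted p = 0.223). Rps19, the protein most often mutated in Diamond-Blackfan anaemia, had 0.15 ± 0.05 (edgeR adjusted p = 0.228). In Rps2, Rps9 and Rps19 the treated libraries were also all above the controls. Rps15, the small subunit protein with the highest FPKM, overlapped between groups (588.4 to 633.0 CPM against 518.6 to 607.5).

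Among mitochondrial proteins, Mrps10 had the smallest p of all. Mrps10 (ENSMUSG00000034729, chromosome 17 from 47368887 to 47378681) is the counterpart of bacterial S10 in the head of the small subunit. It stood at 38.6, 39.3 and 38.4 CPM in the treated and 46.6, 46.7 and 52.4 CPM in the control libraries. The treated values were close together and all below the controls. Its log2 fold change was -0.32 ± 0.07, with a 95% interval from -0.49 to -0.16 and an edgeR adjusted p of 0.0822, which misses the threshold that DESeq2 passed.

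Mrpl50, a protein of the large subunit with no bacterial counterpart, stood at 39.5, 42.9 and 40.2 CPM against 47.9, 46.0 and 47.5 CPM, without overlap (log2 fold change -0.21 ± 0.07, edgeR adjusted p = 0.190). Mrpl48 stood at 45.4, 47.6 and 48.4 CPM against 54.4, 51.1 and 54.0 CPM, also without overlap (-0.17 ± 0.06, edgeR adjusted p = 0.246). Mrpl30, the counterpart of bacterial L30, went the other way. Its values were 125.8, 122.5 and 117.4 CPM against 113.1, 109.97 and 110.9 CPM, with a log2 fold change of 0.13 ± 0.06 and an edgeR adjusted p of 0.319. Mrpl37 (-0.17 ± 0.07) and Mrps11 (-0.17 ± 0.07), a platform protein of the small subunit, had edgeR adjusted p-values of 0.319 and 0.318. Mrps26 and Mrps33, small subunit proteins without a bacterial counterpart, had log2 fold changes of -0.20 ± 0.10 and -0.13 ± 0.07. Mrpl12 (-0.079 ± 0.074), Mrps23 (-0.045 ± 0.060) and Mrpl1 (-0.19 ± 0.13), named for their FPKM, did not pass the test either.

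**Figure D4:**
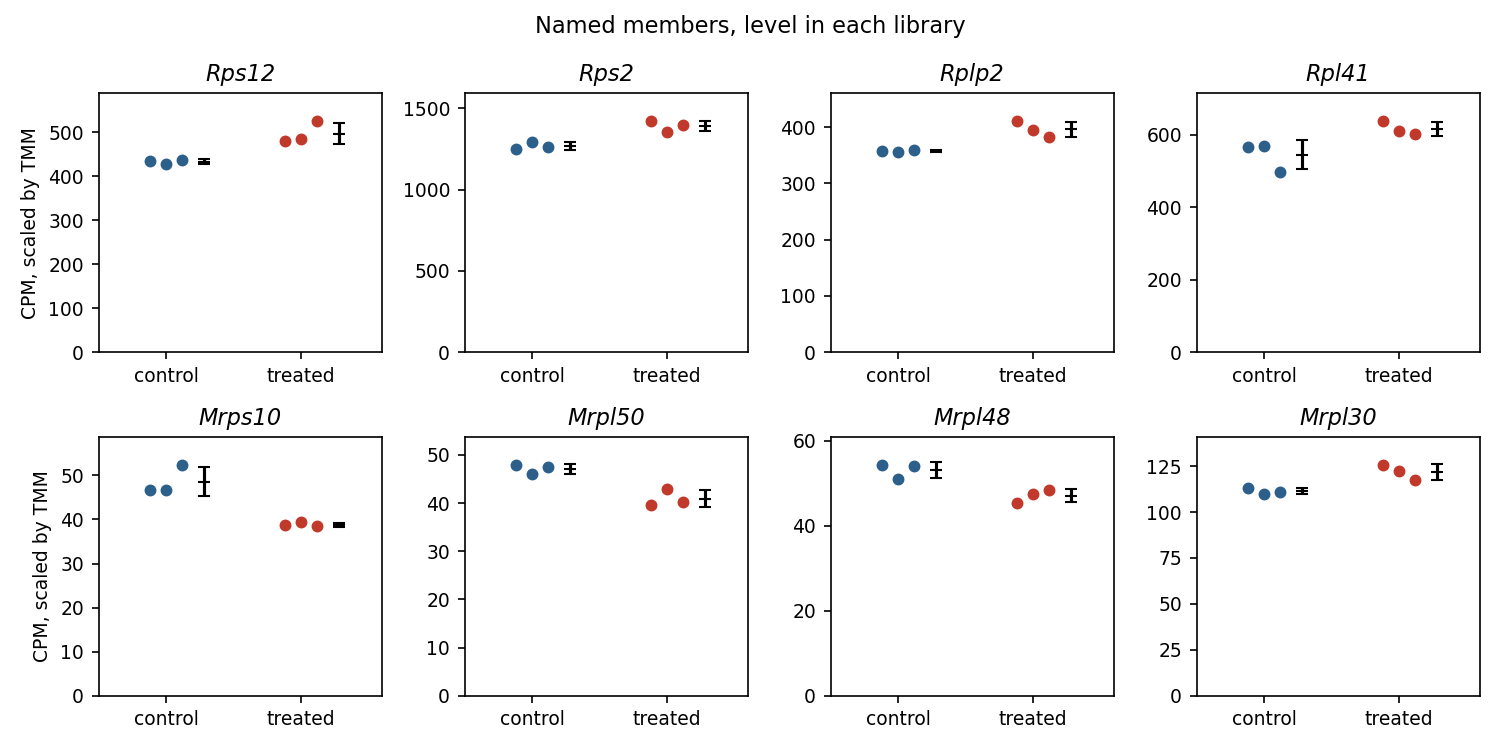
CPM scaled by TMM in each control (blue) and treated (red) library for 8 members, with the mean and SD of each group (n = 3) as black bars; each vertical axis starts at 0. The 8 were picked from the members with the smallest p, so the lack of overlap between groups in all 8 largely follows from that choice. Rps12, Rps2, Rplp2, Rpl41 and Mrpl30 are higher and Mrps10, Mrpl50 and Mrpl48 lower in the treated libraries, by amounts small against each gene's level. All treated libraries were above all controls in 40.7% of tested cytosolic and 2.56% of mitochondrial members, beside 12.0% of all genes. They were below in 3.7% and 8.97%, beside 11.2%.

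Many ribosomal protein genes have processed copies elsewhere in the genome, and reads from near-identical copies cannot be assigned with certainty. The table holds 218 rows named as pseudogenes (-ps) of 59 members, 55 cytosolic and 4 mitochondrial, which together carry 5.02% of the counts of the members and these rows. In 12 members the -ps rows held at least 10% of the family's counts, and in 5 at least 30%: Rpl17 (65.3%), Rpl21 (64.3%), Rps10 (35.7%), Rps12 (35.68%) and Rpl7a (34.5%). Of these, Rpl7a, Rpl17 and Rps10 were singled out after their values had been seen.

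Adding the -ps rows changed the log2 fold change of Rpl17, Rpl21 and Rpl7a most, and that of Rps12 and Rps10 less. How the family's reads were assigned was not tested. Rpl21 stood at 89.8, 103.4 and 98.0 CPM in the treated and 73.5, 74.4 and 88.9 CPM in the control libraries, and its log2 fold change was 0.30 ± 0.09 (edgeR adjusted p = 0.183). With its -ps rows added the log2 fold change was 0.094 (edgeR adjusted p = 0.601). Rpl17 went from 0.35 to 0.051, Rpl7a from 0.28 to 0.16 and Rps12 from 0.20 to 0.16 (edgeR adjusted p = 0.209), while Rps10 went from 0.073 to 0.090. Rpl7a stood at 590.6, 649.2 and 426.7 CPM against 262.3, 491.0 and 617.6 CPM, with overlapping groups. Of the members, 3 (Rpl6l, Rpl32l and Rps4l) are themselves listed as processed pseudogenes in GENCODE M21. Among the 26 tested cytosolic members with no -ps row the median log2 fold change was 0.12, with 23 positive. Among the 55 with -ps rows it was 0.069, with 45 positive.

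**Figure D5:**
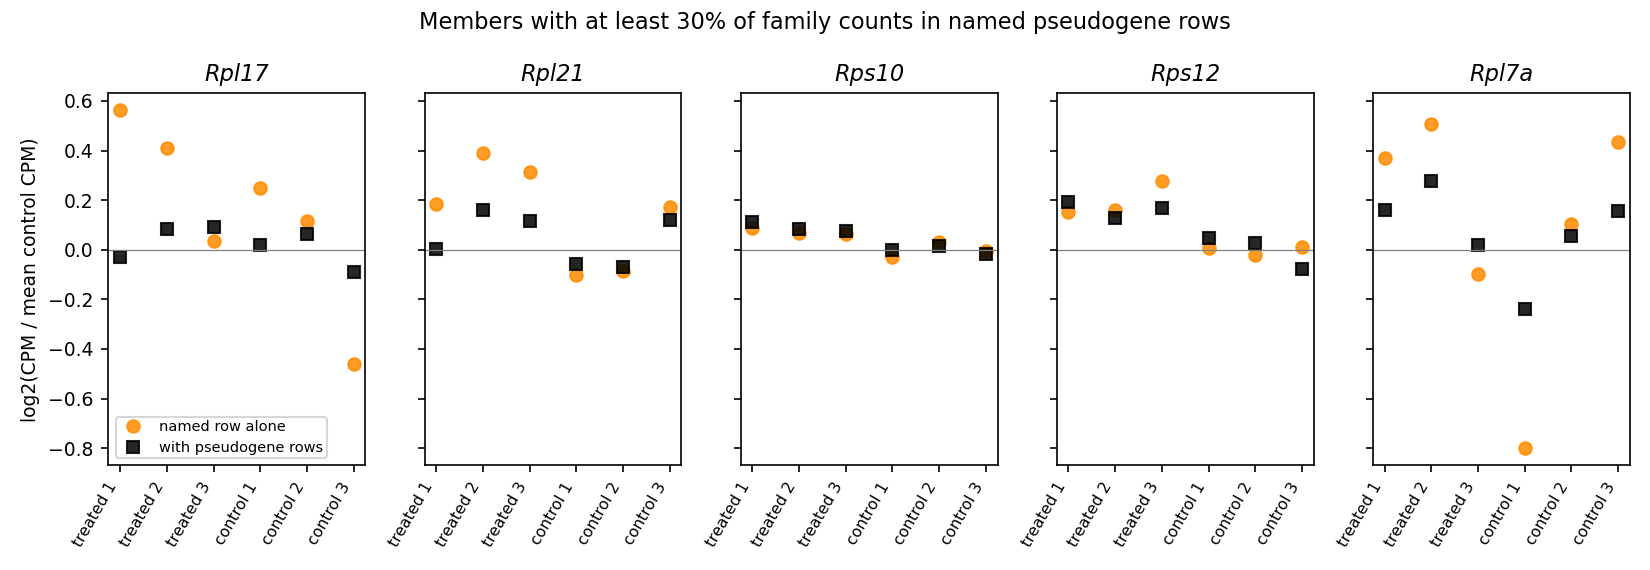
Log2 of CPM over the mean of the controls in each library for the 5 members whose -ps rows held at least 30% of the family's counts, for the named row alone (orange circles) and with the -ps rows added (black squares). Adding the rows draws the 6 libraries of Rpl17 and Rpl7a together, leaves Rps10 nearly as it was, and keeps all treated libraries of Rps12 above the controls.

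Some cytosolic ribosomal proteins have paralogs made mainly in particular tissues. Rpl3l had 12, 10 and 0 counts in the treated and 13, 6 and 0 in the control libraries, against 1317 to 1433 CPM for Rpl3 (log2 fold change 0.006 ± 0.053). The libraries with 0 counts had the lowest skeletal muscle sum of their group, but treated library 2, with 10 counts, had a lower muscle sum (24.6 CPM) than control library 3 (28.3 CPM). Rpl39l (ENSMUSG00000039209), the paralog of Rpl39 best known from male germ cells, had 21, 33 and 30 counts against 0, 0 and 18. Its log2 fold change of 2.04 ± 1.32 (edgeR adjusted p = 0.506) rests on these few counts. Rpl39 itself stood at 168.2, 173.0 and 170.2 CPM against 177.5, 178.9 and 194.1 CPM, all treated values below all controls (-0.11 ± 0.06, edgeR adjusted p = 0.443).

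Rps27l (ENSMUSG00000036781), a paralog of Rps27 known as a target of p53, stood at 138.2, 114.8 and 109.3 CPM against 119.8, 124.5 and 135.4 CPM, with overlapping groups (-0.068 ± 0.098, edgeR adjusted p = 0.800). Rps27 stood at 186.0, 201.3 and 147.5 CPM against 194.3, 141.8 and 123.4 CPM and overlapped too (0.22 ± 0.18). Rps4l had 35, 50 and 48 counts against 31, 58 and 16 (0.29 ± 0.49), beside Rps4x at 0.003 ± 0.055. Rpl10 was at 0.035 ± 0.059, and its paralog Rpl10l was not analysed here. The Rpl3, Rpl10 and Rps4x values are near 0 and change sign with the scaling or with a library left out.

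The promoters of the members were compared with all others for short motifs, since the rule used no sequence. RefSeq windows from 250 bases before to 50 bases after the gene start on GRCm38.p6 were matched by symbol for 129 of the 160 members, 60 cytosolic and 69 mitochondrial, as 147 of 32851 windows. CCGGAAG, a core of ETS family sites searched on both strands, was in 36.1% of cytosolic and 34.7% of mitochondrial windows, against 8.86% of all windows. AAGATGG, a core of YY1 sites, was in 15.3% and 17.3% against 6.34%. CTCGCGAG, a core bound by ZBTB33, was in 11.1% and 2.67% against 0.919%. TATAAA was in 9.72% and 6.67% against 13.6%. CTTTC or CTTCC within 20 bases of the start, read in the direction of the gene, was a simple stand-in for the TOP run. It was in 41.7% of cytosolic and 21.3% of mitochondrial windows, against 13.7% of all. CTTCC read in that direction can overlap the reverse complement of CCGGAAG.

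The stretches below, read from 80 bases before to 20 bases after the start, show these motifs and their absence in members described above, with capitals for the motifs searched. Rplp2 (chr7:141447571-141447670, plus strand) carries the pyrimidine run across the start, and Rpl37 (chr15:5116533-5116632, plus) and Rpl41 (chr10:128549149-128549248, minus) carry CCGGAAG upstream. Rps12 (chr10:23787190-23787289, minus), which has a pyrimidine-rich stretch that the searched letters do not match, stands beside them. Of the mitochondrial members, Mrps10 (chr17:47369117-47369216, plus) and Mrpl50 (chr4:49521064-49521163, minus) have none of the letters searched in this stretch. Mrps26 (chr2:130563677-130563776, plus) has CCGGAAG on the other strand, and the same letters hold the CTTCC counted as its pyrimidine run. The start is RefSeq's, and for Rplp2 and Mrps10 the whole stretch lies inside the gene as the count table draws it. A match is a description of letters, not evidence of binding.
Rplp2: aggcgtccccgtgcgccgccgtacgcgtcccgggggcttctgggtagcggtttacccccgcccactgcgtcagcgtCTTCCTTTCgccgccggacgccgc
Rpl37: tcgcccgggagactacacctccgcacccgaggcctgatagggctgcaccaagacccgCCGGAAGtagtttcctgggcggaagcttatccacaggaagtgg
Rpl41: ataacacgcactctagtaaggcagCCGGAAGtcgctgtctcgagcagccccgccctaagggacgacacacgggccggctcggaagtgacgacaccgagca
Rps12: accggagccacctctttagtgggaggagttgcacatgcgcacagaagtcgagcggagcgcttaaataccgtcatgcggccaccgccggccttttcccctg
Mrps10: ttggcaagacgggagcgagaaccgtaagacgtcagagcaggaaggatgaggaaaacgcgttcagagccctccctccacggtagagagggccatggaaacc
Mrpl50: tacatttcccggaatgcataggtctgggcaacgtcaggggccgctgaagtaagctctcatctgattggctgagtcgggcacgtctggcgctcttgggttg
Mrps26: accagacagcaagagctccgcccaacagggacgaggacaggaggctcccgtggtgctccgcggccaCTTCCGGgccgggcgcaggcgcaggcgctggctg

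Ribosomal proteins whose symbols the rule does not take were looked at separately. Of 12 such genes 0 were called, 3 had a positive log2 fold change, and the median was -0.11. Rpl22l1, the paralog of Rpl22, had -0.21 ± 0.09 (edgeR adjusted p = 0.299), all treated values below all controls. Rps3a1, the most abundant of the 12, had 0.011 ± 0.054.

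Genes that build the cytosolic ribosome lay on the other side of 0 from its proteins. Of 45 ribosome biogenesis genes listed, 44 were tested, and edgeR and limma-voom called 0, while DESeq2 called 7 lower (beside 2.41% of all genes). The median log2 fold change was -0.13, 37 of 44 were negative, and in 16 (36.4%, beside 11.2% of all genes) all treated libraries were below all controls. At an unadjusted p of 0.05, 13 were lower and 2 higher, beside 6.90% and 9.12% of all genes. The 13 became 8 without control library 3, and 18 without treated library 1 or without control library 1. Tsr1, a factor of small subunit maturation, stood at 56.3, 63.1 and 62.3 CPM against 73.6, 73.4 and 74.5 CPM (-0.29 ± 0.07, edgeR adjusted p = 0.0921). Nolc1, a nucleolar chaperone of small RNA-protein particles, stood at 145.7, 138.0 and 135.0 CPM against 157.0, 175.0 and 185.2 CPM (-0.31 ± 0.08, edgeR adjusted p = 0.110). Npm1, an abundant nucleolar protein, had -0.17 (edgeR adjusted p = 0.213). In Tsr1, Nolc1 and Npm1 the groups did not overlap. The difference between these genes and the ribosomal protein genes was not tested.

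Translation factors and other genes with TOP messenger RNAs showed no common direction: of 20, 10 were positive, the median was 0.0023 and edgeR called 0. Eef1a1, the elongation factor that brings aminoacyl-tRNA to the ribosome and the most abundant of the list, had 0.028 ± 0.048. Nap1l1 had -0.18 (edgeR adjusted p = 0.214). Vim, an intermediate filament protein, had 0.23 ± 0.08 (edgeR adjusted p = 0.233), and without treated library 1 its edgeR adjusted p was 0.0195.

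Of 42 genes for mitochondrial translation and ribosome assembly, 41 were tested, 0 were called and 22 were positive, with a median of 0.013. Tfb1m, which methylates the RNA of the mitochondrial small subunit, stood at 16.3, 17.4 and 16.6 CPM against 11.6, 11.8 and 14.5 CPM, without overlap (0.41 ± 0.12, edgeR adjusted p = 0.169). Mterf4, a factor of large subunit assembly, had 0.29 ± 0.11 (edgeR adjusted p = 0.246), and the elongation factor gene Tufm -0.047 ± 0.080.

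Of the 13 messenger RNAs that the mitochondrial ribosome translates, edgeR called 3 higher in the treated libraries (beside 1.36% of all genes) and 0 lower. The 3 encode subunits of respiratory complex I. All of the 13 had a positive log2 fold change, and the median was 0.22. DESeq2 called 7 of the 13 higher (beside 4.95% of all genes), and limma-voom called 3. In 9 of the 13 (69.2%, beside 12.0% of all genes) all treated libraries were above all controls. mt-Nd1 stood at 1823, 1858 and 1721 CPM against 1341, 1290 and 1371 CPM (0.43 ± 0.05, edgeR adjusted p = 0.00624). mt-Nd5 stood at 1054, 1552 and 1305 CPM against 726.4, 706.8 and 768.8 CPM (0.83 ± 0.13, edgeR adjusted p = 0.0200). mt-Nd6 had 0.78 ± 0.11 (edgeR adjusted p = 0.0185), but it is encoded opposite to the strand of its neighbour mt-Nd5, and whether counting used strand is not given in the sources used here. In all 3 the groups did not overlap. Some calls were lost with 1 library left out. mt-Nd1 lost its call without control library 2 (edgeR adjusted p = 0.0805), and mt-Nd5 without each control in turn (up to 0.135). mt-Nd6 lost its call without treated library 2 and without each control in turn (up to 0.128). Calls over all genes fell too, from 246 higher to 127, 94 and 113 without control library 1, 2 or 3, and to 120 without treated library 2. With single libraries left out the log2 fold changes ran from 0.41 to 0.46 for mt-Nd1, 0.69 to 0.96 for mt-Nd5 and 0.68 to 0.90 for mt-Nd6. mt-Co1, the most abundant of the 13, had 0.21 ± 0.07 (edgeR adjusted p = 0.205).

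Of 22 regulators of ribosomal protein supply 21 were tested, and edgeR and limma-voom called 0, while DESeq2 called 2 higher and 3 lower (beside 4.95% and 2.41% of all genes). The median was -0.0076. Eif4ebp1, the translation repressor that mTOR phosphorylates, stood at 135.7, 144.3 and 127.4 CPM against 109.1, 107.6 and 99.3 CPM, without overlap. Its log2 fold change was 0.37 ± 0.07 with an edgeR adjusted p of 0.0538. Pprc1, a coactivator of nuclear genes for mitochondrial proteins, stood at 58.0, 55.9 and 52.6 CPM against 66.7, 75.2 and 72.6 CPM, also without overlap (-0.36 ± 0.07, edgeR adjusted p = 0.0579). Both passed with DESeq2 (adjusted p = 0.000442 and 0.00117), and with a stricter filter on low counts in edgeR (adjusted p = 0.0446 and 0.0497).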

How the data were processed

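Polyadenylated tumour RNA was sequenced as 6 strand-marked, paired-end libraries, per the labels' protocols. Tools named in the submitters' processing notes are fastp, StringTie and edgeR. For the aligner, build, annotation and strand setting, no value is stated: not given in the sources used here. The authors deposited raw counts and FPKM for 28368 genes, per the file headers.

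The counts were tested with edgeR 4.0.16 in R 4.3.3: filterByExpr (minimum count 10, minimum total 15) kept 18049 genes, libraries were scaled by TMM, and glmQLFit and glmQLFTest tested treated against control over all 6 libraries, two-sided, with Benjamini-Hochberg adjustment over all genes tested and a threshold of 0.05. Alternatives were DESeq2 1.42.0, limma-voom 3.58.1, other scalings and filters, log2 FPKM, and single libraries left out. With 57017043 to 66634551 counts per library, the spread between libraries limits the precision for most members.

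The members and lists were chosen with earlier results of these data known. Named are, per subunit, the 4 members with the smallest p and those with the highest and lowest FPKM, the tissue paralogs, and, in each other list, called genes, the most abundant gene and the 2 of smallest p. Genes named for non-overlapping groups or wide intervals, and those with many counts in -ps rows, were added after their values were seen. A gene that the rule names is not reported here. Gene identifiers of all 160 members occur in GENCODE M21 (GRCm38), 136 with the same coordinates, which are given as in the table.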

Additional observations from a re-analysis of the deposited data

How the results depend on the processing

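The count of 0 called members held in edgeR with other scalings, filters and single libraries left out, and in limma-voom. DESeq2 called 1 cytosolic and 1 mitochondrial member, and over all genes 754 higher and 367 lower against edgeR's 246 and 45. The cause was not tested. Leaving out single libraries gave cytosolic medians from 0.064 to 0.088 and mitochondrial medians from -0.092 to -0.0087. Without members that have -ps rows the cytosolic median was 0.12, and among the members that have them it was 0.069. With library totals alone, 22 of 81 cytosolic members (27.2%, beside 10.8% of all genes) had all treated above all control libraries, against 33 with TMM.

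Values near 0 changed sign. With library totals alone Rpl3 was at -0.0085, Rps4x at -0.011 and Rps3a1 at -0.0028, and Rps4x was at -0.0012 with DESeq2 and -0.0013 with RLE factors. Leaving out single libraries gave -0.011 to 0.046 for Rpl3, -0.0043 to 0.064 for Rpl10, -0.017 to 0.051 for Rps4x, -0.013 to 0.060 for Rps3a1, -0.018 to 0.83 for Rps4l, -0.042 to 0.32 for Rpl32l and -0.11 to 0.0039 for Rpl6l. The cause was not tested.

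Same-numbered treated and control libraries did not deviate together (r = 0.086, -0.16 and -0.11), and other combinations gave r from -0.15 to 0.24. With 3 libraries per group such correlations cannot settle pairing, and the labels do not say whether the numbers pair libraries. With a replicate block 0 cytosolic and 0 mitochondrial members were called (medians 0.077 and -0.039), and mt-Nd1, mt-Nd5 and mt-Nd6 lost their calls, as mt-Nd5 did with no filter on low counts. Rpl3l, Rpl39l, Rps4l and Rpl32l had few counts, and how much of their spread is counting error was not tested.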
